A study of Rattus norvegicus with 77 samples.

Results

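The enzymes described here are 10 genes of eicosanoid synthesis, out of 14506 genes with a single symbol on the array: the lipoxygenases Alox15b, Alox15, Alox12 and Alox5, the 5-lipoxygenase activating protein Alox5ap, the cyclooxygenases Ptgs1 and Ptgs2, and the terminal prostaglandin synthases Ptges, Ptgds and Hpgds. Each was read from the probe set (the probes of 1 transcript) that carried its symbol alone, and all 10 had exactly 1 such probe set. Alox15b and Ptgds were chosen by their difference between the HD and Water arrays, so their values in that contrast are given as a description without a test, and the other 8 entered as relatives in the same pathway. All 10 were kept, with no filter on low values. Sperm RNA of 77 Fischer 344 rats was hybridized to Affymetrix Rat Gene 1.0 ST arrays, 1 rat per array, and the values are log2 intensities. The HD group (n = 19) drank water with 0.33% 2,5-hexanedione (HD), a toxicant of Sertoli cells, the cells that support developing germ cells, for 3 months, and the Water group (n = 20) drank plain water for the same time. The HD-Recovery group (n = 20) and the Water-Recovery group (n = 18) had the same 3 months followed by 3 months on plain water. Cauda epididymal sperm were treated with an ammonium chloride buffer meant to lyse somatic cells. The rats' ages are not stated in the labels used here.

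Eicosanoids are signalling lipids made from arachidonic acid that phospholipase A2 frees from membranes. Lipoxygenases oxygenate the free acid to hydroperoxides and leukotrienes, whereas cyclooxygenases turn it into prostaglandin H, which terminal synthases convert to prostaglandin E or D. In the male tract, lipocalin-type prostaglandin D synthase, the product of Ptgds, is known as an abundant secreted protein of the epididymis and seminal fluid, and lipoxygenases and haematopoietic synthases of the pathway are best known from leukocytes.

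The promoter of Ptgds is shown because Ptgds had the widest spread between arrays of the 10 genes. RefSeq windows (build GRCr8) running from 250 bases before to 50 bases after the gene start were found for 6 of the 10 genes, namely Alox12, Alox5, Ptgs1, Ptgs2, Ptges and Ptgds. The Ptgds window lies at chr3:28682929-28683228 on the minus strand and is written 5′ to 3′ along the gene, with capitals for matches to a GC box:
Ptgds: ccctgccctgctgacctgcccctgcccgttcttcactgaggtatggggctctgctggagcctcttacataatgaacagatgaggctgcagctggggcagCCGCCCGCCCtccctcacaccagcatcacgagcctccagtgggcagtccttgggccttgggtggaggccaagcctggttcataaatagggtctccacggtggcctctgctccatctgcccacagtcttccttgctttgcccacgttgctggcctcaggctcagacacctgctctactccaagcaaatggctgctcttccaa
Searched on both strands were the GC box GGGCGG, the CCAAT box CCAAT, the TATA box TATAAA and the steroid receptor half-site AGAACA, which 33.1%, 37.5%, 14.2% and 20.7% of all 33469 windows of this length held. The Ptgds window held 2 overlapping GC boxes on the opposite strand, starting at positions −151 and −147 from the gene start, and none of the other motifs. Among the other 5 windows, GC boxes were found in those of Alox12 (3 matches), Alox5, Ptgs2 and Ptges (1 match each), a CCAAT box in that of Ptgs2 and a steroid receptor half-site in that of Ptges. The Ptgs1 window held no match. A match of letters is a description of the sequence and not a measured binding site.

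Some arrays differed from the rest of their group. By their median correlation with the others, 4 HD arrays (replicates 3, 4, 5 and 14), 1 Water array (replicate 20), 3 HD-Recovery arrays (replicates 2, 9 and 16) and 2 Water-Recovery arrays (replicates 12 and 15) stood more than 3 scaled median absolute deviations below their group's median. All were kept, and values without these 10 arrays are given where they change a result. Omitting them also raised the number of calls over the whole array in most comparisons. A q-value under 0.05 without them therefore does not set an enzyme apart from other probe sets. The sperm identity of the samples was checked on the protamine Prm1, which averaged 12.70 in HD, 12.94 in Water, 12.95 in HD-Recovery and 12.89 in Water-Recovery arrays, above 99.9% of probe sets. Transcripts of other cells were measured as well, among them the leukocyte antigen Ptprc, above 90.4% of probe sets, and decorin (Dcn) of connective tissue, above 97.6%. With bulk RNA, fewer cells of a type and less RNA per cell cannot be told apart.

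Alox15b, which encodes a lipoxygenase that oxygenates arachidonic acid, was the member whose HD arrays lay highest above the Water arrays. Its log2 intensity had a lowest, median and highest value of 6.80, 7.22 and 9.11 in arrays labelled HD, against 6.51, 6.79 and 7.02 in arrays labelled Water. All 19 HD arrays exceeded the Water median and 16 of them the highest Water array. The means were 7.31 ± 0.48 (SD, n = 19) in HD and 6.80 ± 0.12 (SD, n = 20) in Water arrays, a log2 fold change of 0.51 (SE 0.11), or 1.43-fold. Here and below, fold changes are the mean of arrays labelled HD minus that of arrays labelled Water, and their direction is opposite to the one the study gives for both Alox15b and Ptgds. The highest value, 9.11, belonged to HD replicate 4 and the next, 7.69, to HD replicate 14, both among the arrays that stood apart. Without HD replicate 4 the log2 fold change was 0.41. When all 10 such arrays were omitted it was 0.38 (SE 0.06), with the HD arrays between 6.80 and 7.47.

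After recovery the Alox15b values of exposed and control rats overlapped almost completely. They ran from 6.55 over a median of 6.82 to 7.03 in HD-Recovery arrays, and from 6.31 over 6.73 to 7.13 in Water-Recovery arrays. The means of 6.79 ± 0.15 (SD, n = 20) and 6.74 ± 0.20 (SD, n = 18) gave a log2 fold change of 0.05 (SE 0.06, 95% interval −0.06 to 0.16), which did not pass the test (limma, q = 1.0). All 20 HD-Recovery arrays lay below the median of the HD arrays, and 16 of the 19 HD arrays lay above the highest HD-Recovery array, at a log2 fold change of −0.51 (SE 0.11) for HD-Recovery minus HD, for which no test is given since it shares the HD arrays. In order of their means the groups ran HD, Water, HD-Recovery and Water-Recovery, and only the first step was larger than the SDs of the 3 lower groups.

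**Figure D1:**
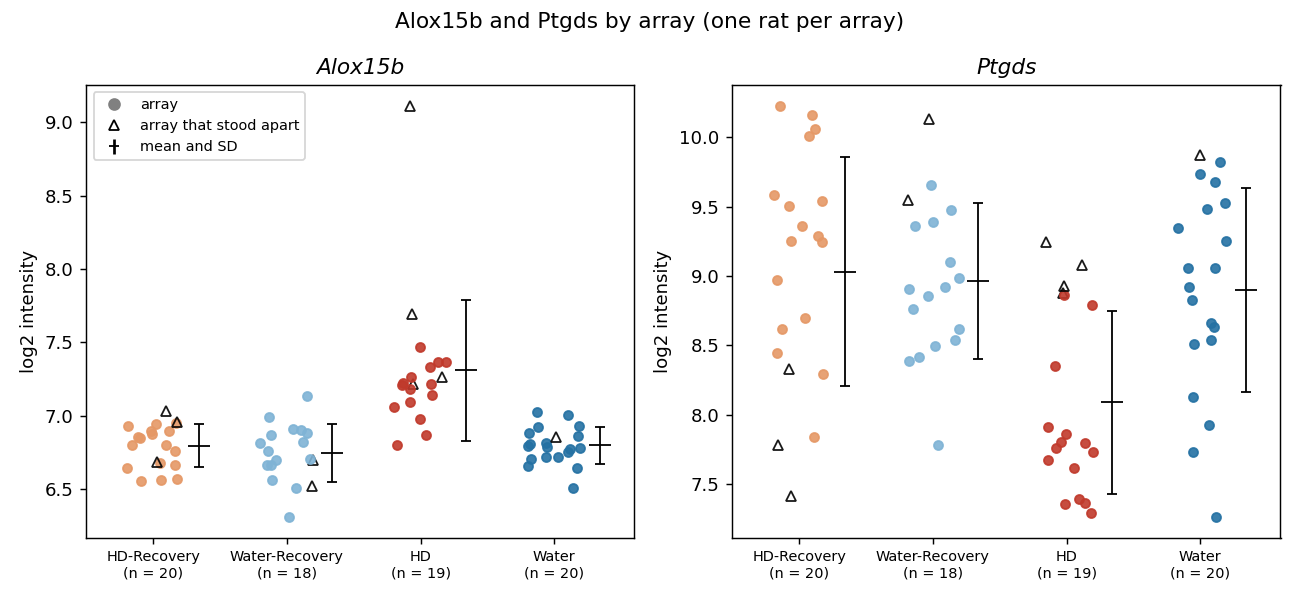
Log2 intensity (vertical axis) of Alox15b (left) and Ptgds (right) in each of the 77 arrays by group (horizontal axis), with open triangles for arrays that stood apart and bars for mean and SD. For Alox15b, 16 of the 19 HD arrays sit above every Water and HD-Recovery array, with HD replicate 4 at 9.11, and for Ptgds the median of the HD arrays is 7.80, against 8.99 in Water arrays.

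Ptgds was the member with the largest difference between the groups and varied widely within each. The SD of Ptgds over all arrays, 0.79, exceeded that of 99.8% of probe sets. Its log2 intensity had a lowest, median and highest value of 7.29, 7.80 and 9.25 in arrays labelled HD, against 7.26, 8.99 and 9.87 in arrays labelled Water. Of the 19 HD arrays 17 were under the Water median, yet none was under the lowest Water array, so the ranges overlapped. The means of 8.09 ± 0.66 (SD, n = 19) in HD and 8.90 ± 0.73 (SD, n = 20) in Water arrays gave a log2 fold change of −0.81 (SE 0.21), or 1.75-fold. In the HD group the 4 arrays that stood apart held the 4 highest values, 9.25, 9.08, 8.92 and 8.87 for replicates 4, 3, 14 and 5. Omitting all 10 such arrays gave a log2 fold change of −1.01 (SE 0.20).

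In recovered rats Ptgds had a lowest, median and highest value of 7.42, 9.25 and 10.23 in HD-Recovery arrays, against 7.78, 8.91 and 10.13 in Water-Recovery arrays. The groups overlapped over nearly the whole range. Their means were 9.03 ± 0.83 (SD, n = 20) and 8.96 ± 0.56 (SD, n = 18), with a log2 fold change of 0.07 (SE 0.22, 95% interval −0.38 to 0.51) that did not pass the test (limma, q = 1.0). The 2 lowest HD-Recovery values, 7.42 and 7.79, were those of replicates 9 and 2, which are among those set apart above, and omitting all 10 such arrays gave a log2 fold change of 0.39 (SE 0.20, q = 0.085). Against the HD group, 18 of the 20 HD-Recovery arrays lay above the HD median and 10 above the highest HD array, with a log2 fold change of 0.94 (SE 0.23), given without a test. In order of their means the groups ran HD-Recovery, Water-Recovery, Water and HD, and only the step between Water and HD was larger than the SDs of both of its groups. Water-Recovery minus Water was −0.05 (SE 0.05) for Alox15b and 0.06 (SE 0.20) for Ptgds, given without a test since the Water arrays also served to choose both genes.

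The difference of the HD effects, HD minus Water less HD-Recovery minus Water-Recovery, was 0.46 (SE 0.12) for Alox15b and −0.88 (SE 0.31) for Ptgds on the log2 scale. When the arrays that stood apart were omitted it was 0.36 (SE 0.08) and −1.40 (SE 0.29). It contains the contrast by which both were chosen and is given as a description.

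Across the whole array, 0.0171% of the 29214 probe sets were called higher and 0.455% lower in HD than in Water arrays at q under 0.05. Most calls were thus lower in arrays labelled HD, whereas the study reports most of its annotated altered transcripts as elevated after HD. This opposite direction therefore concerns the whole array and not single genes, and its reason was not tested. The 138 calls made here became 76 if Water replicate 10 was omitted, 376 if HD replicate 14 was omitted and 8818 if the 10 arrays that stood apart were omitted. Nothing is read from these shares for Alox15b and Ptgds, which this contrast chose. None of the 8 enzymes that entered by family was called (smallest q = 0.47, limma), and 2 of the 8 had an unadjusted p under 0.05, against 8.3% of all probe sets. Over the 10 members the log2 fold change had a median of −0.04, against 0.01 over all probe sets. In HD-Recovery against Water-Recovery arrays, 0 probe sets were called (0%) by q-values or by Benjamini-Hochberg adjustment, with 1318 at an unadjusted p under 0.05, and 2 of the 10 members, Ptgs1 and Ptges, were among these. Omitting the arrays that stood apart gave 3834 calls in this comparison. The q-values of single enzymes given without these arrays come from the fits with such higher counts.

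**Figure D2:**
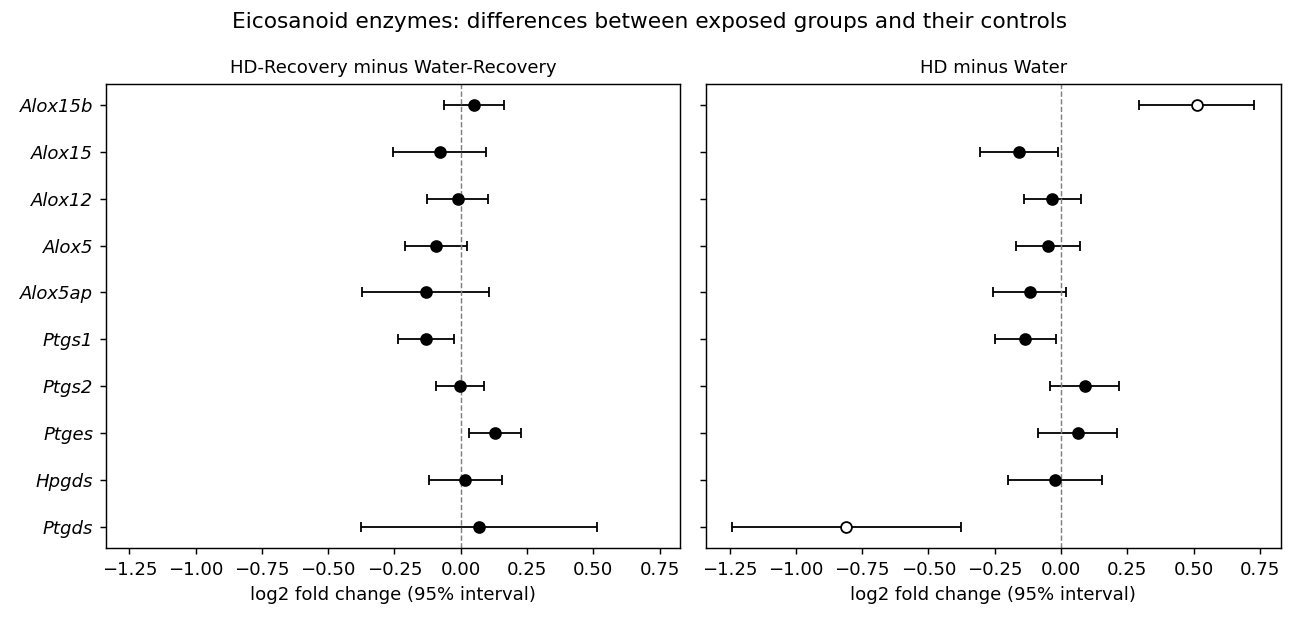
Log2 fold change of the 10 enzymes (points) with 95% intervals (bars) for HD-Recovery minus Water-Recovery (left) and HD minus Water (right), with open points where the gene was chosen on that contrast. Alox15b at 0.51 and Ptgds at −0.81 lie apart in HD minus Water, the other 8 lie between −0.16 and 0.09, and all 10 lie between −0.13 and 0.13 after recovery.

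Among the other lipoxygenases, Alox15, the 12/15-lipoxygenase of leukocytes, had the largest difference. Its lowest, median and highest values were 6.64, 7.08 and 7.69 in arrays labelled HD, against 6.93, 7.25 and 7.64 in arrays labelled Water. The ranges overlapped, although 15 of the 19 HD values were under the Water median. The log2 fold change was −0.16 (SE 0.07, q = 0.54), and −0.19 (q = 0.019) without the arrays that stood apart. In recovered rats Alox15 averaged 7.30 ± 0.24 (SD, n = 20) in HD-Recovery and 7.38 ± 0.31 (SD, n = 18) in Water-Recovery arrays, at −0.08 (SE 0.09, q = 1.0), and it was 0.03 without the arrays that stood apart. Between the exposed groups, 17 of the 20 HD-Recovery arrays lay above the HD median, at 0.22 (SE 0.08, q = 0.43), and without the arrays that stood apart this was 0.30 (q = 0.00076).

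Alox12, the platelet-type 12-lipoxygenase, lay low on the array, with 14.8% of probe sets below it. It averaged 5.63 ± 0.19 (SD, n = 19) in HD, 5.66 ± 0.13 (SD, n = 20) in Water, 5.65 ± 0.17 (SD, n = 20) in HD-Recovery and 5.66 ± 0.17 (SD, n = 18) in Water-Recovery arrays. No neighbouring pair in the order of its means differed by more than 0.02, well within these SDs.

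Alox5 makes the leukotriene precursor, and Alox5ap presents arachidonic acid to it. Alox5 averaged 6.49 ± 0.20 in HD and 6.54 ± 0.17 in Water arrays (SD, n = 19 and 20), a log2 fold change of −0.05 (SE 0.06, q = 0.97). After recovery it was 6.53 ± 0.17 in HD-Recovery and 6.62 ± 0.19 in Water-Recovery arrays (SD, n = 20 and 18), at −0.09 (SE 0.06, q = 1.0). Neither difference passed. Alox5ap ran from 6.74 over a median of 7.14 to 7.68 in HD arrays, against 6.77, 7.29 and 7.56 in Water arrays, and 16 of the 19 HD values were under the Water median. The difference was −0.12 on the log2 scale (SE 0.07, q = 0.71), and −0.14 (q = 0.047) without the arrays that stood apart. Its spread was wider after recovery, with single high arrays in each group, 8.44 in HD-Recovery replicate 17 and 8.35 in Water-Recovery replicate 20, and a log2 fold change of −0.13 (SE 0.12, q = 1.0). It was −0.20 without HD-Recovery replicate 17 and −0.07 without Water-Recovery replicate 20.

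Ptgs1, the constitutive cyclooxygenase, had nearly the same difference at both times. Its lowest, median and highest values were 6.23, 6.61 and 6.90 in arrays labelled HD, against 6.52, 6.74 and 7.22 in arrays labelled Water. In 13 of the 19 HD arrays it was under the Water median. After recovery they were 6.42, 6.69 and 6.95 in HD-Recovery, against 6.51, 6.81 and 7.09 in Water-Recovery arrays, with 16 of the 20 HD-Recovery arrays below the Water-Recovery median. The log2 fold change was −0.13 in HD minus Water (SE 0.06, p = 0.025, q = 0.47, limma) and −0.13 in HD-Recovery minus Water-Recovery (SE 0.05, p = 0.015, q = 0.93, limma), and neither passed. In HD minus Water it was called with array weights (−0.14, q = 0.031) and without the arrays that stood apart (−0.16, q = 0.017), and in the recovered groups under none of the alternatives tried. Both of these settings called far more probe sets over the whole array than the main fit.

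Ptgs2, the inducible cyclooxygenase, averaged 6.80 ± 0.22 in HD and 6.71 ± 0.18 in Water arrays (SD, n = 19 and 20), a log2 fold change of 0.09 (SE 0.06, q = 0.84). In recovered rats it averaged 6.74 ± 0.12 in HD-Recovery and 6.74 ± 0.13 in Water-Recovery arrays (SD, n = 20 and 18), with a 95% interval of −0.09 to 0.09 for the difference. HD-Recovery minus HD came to −0.06 (SE 0.06, q = 0.91), and to −0.11 (q = 0.019) without the arrays that stood apart. The highest value of Ptgs2 in the HD group, 7.33, was again that of replicate 4.

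Ptges, the inducible prostaglandin E synthase, showed its clearest difference in the recovered rats. Its lowest, median and highest values were 7.18, 7.33 and 7.74 in HD-Recovery arrays, against 7.02, 7.24 and 7.56 in Water-Recovery arrays. The ranges overlapped, with 17 of the 20 HD-Recovery arrays above the Water-Recovery median. The log2 fold change was 0.13 (SE 0.05, p = 0.011), which did not pass over all probe sets (limma, q = 0.88), and was 0.14 (q = 0.040) without the arrays that stood apart. At the end of exposure Ptges averaged 7.39 ± 0.29 in HD and 7.33 ± 0.17 in Water arrays (SD, n = 19 and 20), at 0.06 (SE 0.07, q = 0.97). Without the arrays that stood apart, among them HD replicate 4 with the highest value of 8.12, this was −0.06. The comparison of HD-Recovery with HD gave −0.02 with all arrays (SE 0.07, q = 0.999) and 0.10 (q = 0.035) without the arrays that stood apart.

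Hpgds, the haematopoietic prostaglandin D synthase of mast cells and other leukocytes, makes the same product as Ptgds and did not differ between the groups beyond their spread. It averaged 6.22 ± 0.31 in HD and 6.24 ± 0.25 in Water arrays (SD, n = 19 and 20), at −0.02 (SE 0.09, 95% interval −0.20 to 0.15, q = 0.99). In recovered rats the means were 6.30 ± 0.21 in HD-Recovery and 6.28 ± 0.21 in Water-Recovery arrays (SD, n = 20 and 18), at 0.02 (SE 0.07, q = 1.0). The lowest HD value, 5.31, was that of replicate 5, an array that stood apart.

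**Figure D3:**
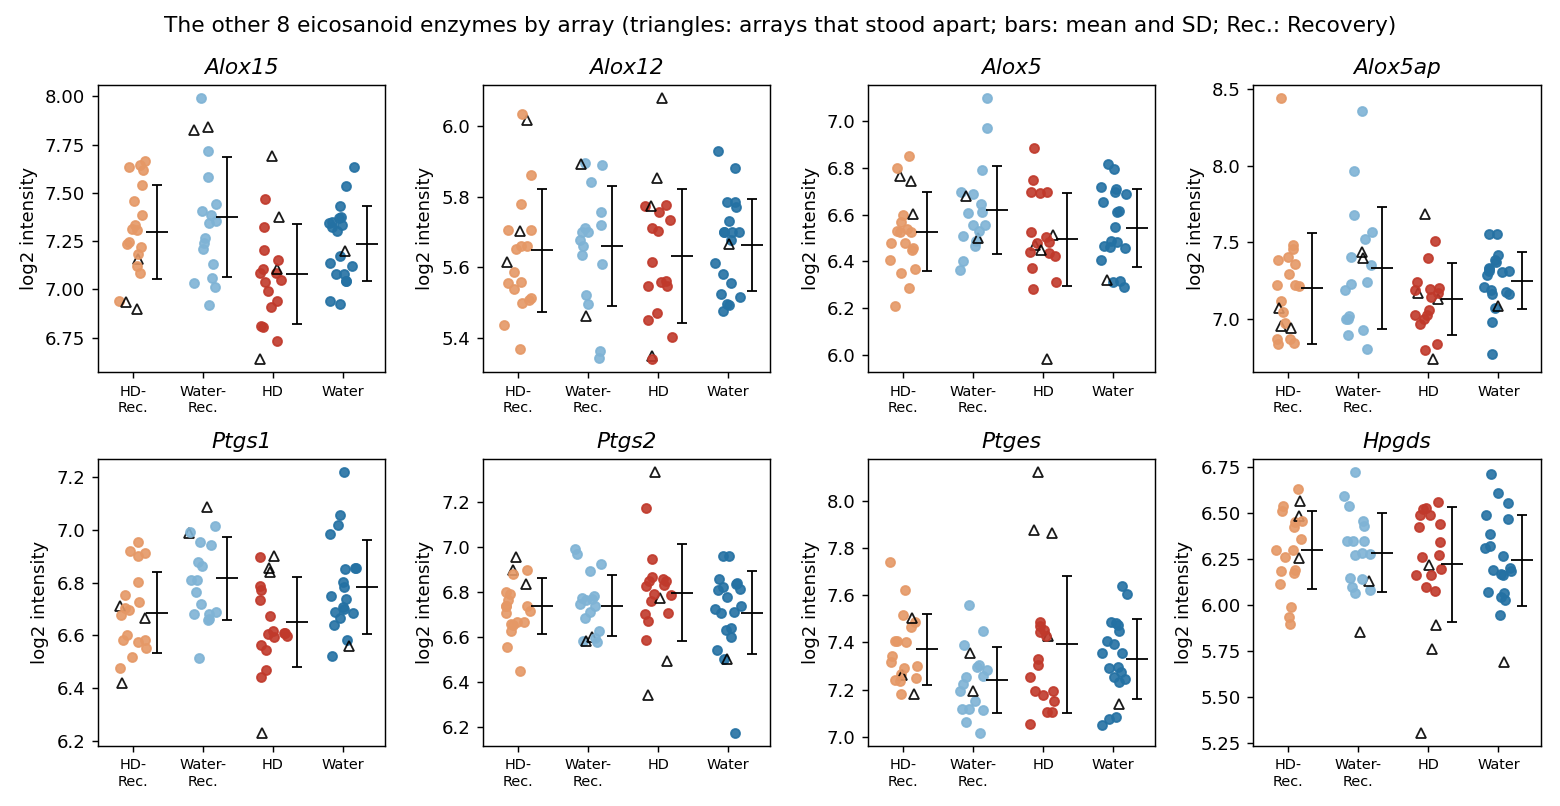
Log2 intensity (vertical axes, a scale of its own for each gene) of the other 8 enzymes in each array by group (horizontal axes), with open triangles for arrays that stood apart and bars for mean and SD. The groups overlap for all 8, and single arrays that stood apart lie at an end of the HD range, such as Ptges at 8.12 and Hpgds at 5.31.

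In the 2 comparisons over time, Water-Recovery with Water called 0 probe sets (0%, by q-values or Benjamini-Hochberg adjustment, with 1905 at an unadjusted p under 0.05), and none of the 8 enzymes that entered by family reached that p. HD-Recovery with HD called 0.0308% of probe sets (9, or 16922 when the arrays that stood apart were omitted) and none of the 8 enzymes that entered by family, of which 1, Alox15, had an unadjusted p under 0.05, against 7.55% of all probe sets. For the difference of the HD effects, 0 probe sets were called (0%), with 987 at an unadjusted p under 0.05 and 16591 calls without the arrays that stood apart, and none of the 8 enzymes that entered by family reached that p.

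The rest of the pathway was read from 5 lists with 63 measured genes. None of the 63 was called in any of the 5 comparisons, and in HD against Water arrays 3 had an unadjusted p under 0.05 with a higher and 2 with a lower value, where 8.3% of all probe sets had such a p. The median log2 fold change in that comparison was −0.003 for the 13 genes of the phospholipase A2 list and −0.002 for the 11 other lipoxygenase and leukotriene genes. It was −0.01 for the 9 genes of the list of other prostanoid synthases. For the 16 breakdown and transport genes it was −0.007, and for the 14 genes of the eicosanoid receptor list −0.002. These lists also held related genes that are not such enzymes or receptors, namely Plaa, Gpx1, Gpx4 and Ptgfrn. Nearest to the threshold was Pla2g2a, a secreted phospholipase A2, at −0.53 (SE 0.13, q = 0.054), followed by Cyp4f4, a fatty acid hydroxylase, at −0.36 (SE 0.12, q = 0.23) and Cbr1, a carbonyl reductase that converts prostaglandin E, at 0.38 (SE 0.16, q = 0.46). In HD-Recovery against Water-Recovery arrays the smallest p-values belonged to Pla2g2d, at −0.18 (SE 0.06, q = 0.72), Pla2g12a, at 0.11 (SE 0.05, q = 0.98), and Cbr1, at 0.26 (SE 0.11, q = 1.0). Cbr1, read from the brighter of its 2 probe sets, thus had a positive value at both times and did not pass at either.

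In Water-Recovery against Water arrays they were Pla2g2d, at 0.20 (SE 0.06), Pla2g12a, at −0.14 (SE 0.05), and Akr1b1, an aldose reductase that also makes prostaglandin F, at −0.20 (SE 0.09), each with q = 0.645. In HD-Recovery against HD arrays they were Cyp4f4, at 0.39 (SE 0.13, q = 0.34), Ptgr1, which reduces prostaglandins and leukotrienes, at −0.18 (SE 0.06, q = 0.34), and Ltb4r2, a leukotriene receptor, at −0.13 (SE 0.06, q = 0.60). For the difference of the HD effects they were Pla2g2d at 0.23 (SE 0.08), Pla2g5 at 0.18 (SE 0.08) and Cyp4f4 at −0.36 (SE 0.18), each with q = 1.0.

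The array levels of markers of other cells moved with some of the enzymes. In arrays labelled HD, 5 of 32 leukocyte and macrophage markers were called lower than in arrays labelled Water (Cd4, Fcer1g, Lyz2, Ccr2 and Cx3cr1), with a median of −0.30, where 0.455% of all probe sets were called lower. Also called lower were 2 of 14 fibroblast markers (Dcn and Igf1), 1 of 9 erythroid markers (Ahsp) and 1 of 25 sperm markers (Odf1). The sperm list went both ways, with log2 fold changes from −0.58 to 0.83 and a median of 0.12. In it 9 markers had an unadjusted p under 0.05 (limma) with a higher and 7 with a lower value, where 8.3% of all probe sets had such a p. None was called in the lists of epididymal epithelium (22), neutrophils and eosinophils (14), mast cells (11), platelets (6), Sertoli cells (15), Leydig cells (6) or smooth muscle and endothelium (10). The mean of the leukocyte list per array had a lowest, median and highest value of 7.15, 7.29 and 8.02 in HD, against 7.26, 7.69 and 8.07 in Water arrays, and of 7.16, 7.74 and 8.35 in HD-Recovery, against 7.20, 7.78 and 8.45 in Water-Recovery arrays. For the epididymal list these were 7.01, 7.22 and 7.67 in HD, against 7.01, 7.31 and 7.74 in Water arrays. No marker was called in HD-Recovery against Water-Recovery arrays. For Lyz2 and Dcn, called lower here in arrays labelled HD, the study's array values are higher after HD. Its quantitative PCR values, from other rats and relative to rats before exposure, are lower for both genes at the end of exposure. Neither of these PCR differences reached the study's threshold at that time. For Ptgds the study's PCR value is higher, as is its array value.

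Ptgds varied with these marker levels in the same direction within each group, whereas the direction for Alox15b differed between the groups. After group means were removed, the correlation of Ptgds with the leukocyte mean over the 77 arrays was r = 0.73 (rho = 0.75) and that with the epididymal mean r = 0.62 (rho = 0.74), each with an adjusted permutation p of 6.9e-05 for r, the smallest the permutations gave over 110 enzyme and list pairs. Without the 2 arrays farthest from the median of Ptgds the values were 0.71 and 0.59. Ptgds had negative correlations with the Leydig cell (r = −0.70, rho = −0.69), mast cell (r = −0.59, rho = −0.63) and smooth muscle and endothelium means (r = −0.55, rho = −0.56). Negative too were the neutrophil and eosinophil (r = −0.49), platelet (−0.46) and Sertoli cell means (−0.33). The erythroid (0.45), sperm (0.39) and fibroblast means (0.31) were positive. Ptgds thus passed for both r and rho with every list, and no list was particular in this. Its r with the sperm mean was 0.11 without the arrays that stood apart. Within single groups r of Ptgds with the leukocyte mean was 0.72 in HD, 0.73 in Water, 0.83 in HD-Recovery and 0.68 in Water-Recovery arrays. Alox15b had r = −0.01 with the leukocyte mean (rho = −0.20, adjusted permutation p = 0.98 for r) and r = 0.00 with the epididymal mean (rho = −0.19, adjusted permutation p = 0.99 for r). Without the 2 arrays farthest from the median of Alox15b these r were −0.23 and −0.27, so the values near 0 rested on few arrays. Its r with the leukocyte mean was 0.47 within HD arrays, but −0.39 in Water, −0.47 in HD-Recovery and −0.43 in Water-Recovery arrays, so the pooled value joins groups of opposite sign. The points of these correlations are arrays and share each array's RNA quality. Without the arrays that stood apart r with the leukocyte mean was 0.69 for Ptgds and −0.30 for Alox15b. With the epididymal mean it was then 0.58 for Ptgds and −0.27 for Alox15b, and with the neutrophil and eosinophil mean −0.42 and 0.33. The part of other cells in the group differences of the enzymes was not tested.

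Alox15, Alox5ap and Ptgs1 also followed the leukocyte mean, with r = 0.75, 0.65 and 0.62 (rho = 0.72, 0.66 and 0.65, adjusted permutation p = 6.9e-05 for each r). Without the 2 farthest arrays r was 0.70, 0.64 and 0.68. Alox15 varied with the erythroid mean too (r = 0.71, rho = 0.68), and Alox5ap and Ptgs1 with the fibroblast mean (r = 0.67 and 0.66, rho = 0.61 and 0.63). Hpgds had its highest positive r with the platelet (0.65, rho = 0.53) and mast cell means (0.62, rho = 0.47), and a negative r with the sperm mean (−0.47, rho = −0.36). Without the 2 farthest arrays these 3 values were 0.54, 0.48 and −0.30, and omitting those that stood apart gave 0.51, 0.39 and −0.19. Hpgds also had r = 0.52 (rho = 0.38) with the neutrophil and eosinophil mean. It lay low on the array, above 30.2% of probe sets. In Water arrays the mast cell list averaged 5.91 and the neutrophil list 6.27, under the median probe set mean of 6.72. The cell source of Hpgds was not tested. In all, 47 of the 110 pairs passed for both r and rho.

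**Figure D4:**
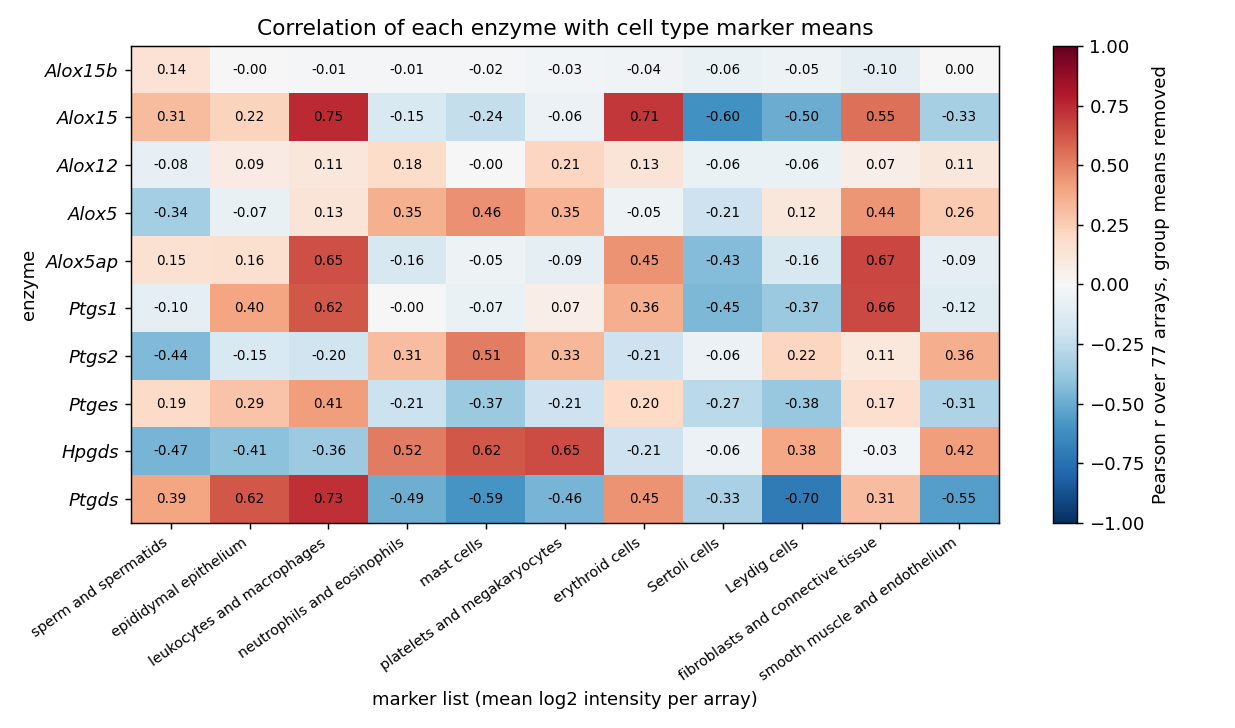
Pearson r over the 77 arrays, after group means were removed, between each enzyme (vertical axis) and the mean log2 intensity of each of 11 marker lists (horizontal axis), with the colour scale from −1 to 1. Ptgds, Alox15, Alox5ap and Ptgs1 have r between 0.62 and 0.75 with the leukocyte list, while Alox15b lies between −0.10 and 0.14 with all 11 lists. Not drawn are values without the arrays that stood apart, where Alox15b ran from −0.30 (leukocytes) to 0.33 (neutrophils and eosinophils).

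Among the enzymes themselves, 12 of 45 pairs passed for both r and rho (permutation within groups, Benjamini-Hochberg over the 45 pairs). The strongest was Alox15 with Alox5ap (r = 0.61, rho = 0.57, adjusted p = 0.00015, r = 0.53 without the 2 farthest arrays). Both prostaglandin D synthases ran against each other, with r = −0.51 (rho = −0.50, adjusted permutation p = 0.00015) for Ptgds and Hpgds, −0.52 without the 2 farthest arrays. Alox15b and Ptges had r = 0.53 (rho = 0.29, adjusted permutation p = 0.0013 for r), which was 0.30 without the 2 farthest arrays and 0.23 without the arrays that stood apart, so its size rested on few arrays. Over all arrays Alox15b and Ptgds did not pass (r = 0.03, rho = −0.17, adjusted permutation p = 0.85 for r). Leaving out the 2 farthest arrays gave r = −0.22 for this pair, and omitting those that stood apart gave −0.27. The value near 0 thus rested on few arrays. Within single groups r was 0.53 in HD, −0.56 in Water, −0.30 in HD-Recovery and −0.54 in Water-Recovery arrays. In the HD group replicate 4 held the highest value of both genes.

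The genes outside the list whose values were most like those of Ptgds over the 77 arrays, after group means were removed, were Cd52, a surface antigen of leukocytes and of sperm in the epididymis, at r = 0.97, and Tecr and Fads2, enzymes of fatty acid elongation and desaturation, at 0.94 each. Eddm3b, an epididymal secretory protein, at 0.93, and Mfrp, at 0.93, followed. Without the arrays that stood apart the 5 values were between 0.92 and 0.96. Cd52 had a log2 fold change of −0.43 (SE 0.20) in HD minus Water, Tecr of −0.30 (SE 0.19) and Fads2 of −0.46 (SE 0.22). Eddm3b had −0.59 (SE 0.19) and Mfrp −0.56 (SE 0.16), all given as values beside that of Ptgds. The genes most like Alox15b were Heyl, a transcriptional repressor of the Notch pathway, at r = 0.67, Krt19, a keratin of simple epithelia, at 0.65, Slc25a22, a mitochondrial glutamate carrier, at 0.62, Sh2d4a at 0.61 and Tmem54 at 0.55. Without the arrays that stood apart these 5 fell to between 0.09 and 0.38.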

How the data were processed

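The authors deposited 1 table of log2 intensities, a value for each of 29214 probe sets on each of 77 arrays, from 2.51 to 14.63, and the log2 scale was read from this range. The sources used here do not give the background correction or the normalization steps, and the submitters' processing notes name limma. Array medians lay between 6.51 and 6.78. No 2 arrays held the same values. The number of arrays limits the precision. Genes were named through the platform annotation: 15310 probe sets carried 1 symbol, 323 several and 13581 none. A listed gene with more than 1 probe set, such as Cbr1 or Akr1b1, was read from the one with the highest mean only. The limma package (3.58.1, R 4.3.3) was fitted to all probe sets of each pair of groups, after the study's methods, Storey q-values were computed over the whole table, and probe sets with q under 0.05 were called. The fit was tested on simulated data with independent normal noise and no outlying arrays. That test does not cover arrays that stood apart or probe sets that vary together. Group labels came from the sample titles, and the labels call the samples biological replicates. The 10 enzymes, the pathway lists and the marker lists were chosen with earlier results of these data known. Named were all 10 enzymes, pathway genes called in a comparison or with the 3 smallest p-values in it, and the 5 genes most correlated with Alox15b and with Ptgds after group means were removed. Correlations had 100000 permutations within groups. These treated all arrays of a group as exchangeable, so their p-values do not allow for a shift between replicate numbers up to 10 and over 10. Alternatives covered scaling, array weights, arrays that stood apart, one fit of all 4 groups, dim probe sets, Benjamini-Hochberg adjustment, replicate numbers and single arrays left out.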

Additional observations from a re-analysis of the deposited data

How the results depend on the processing

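The numbers of called probe sets depended on the setting, and the cause was not tested. In HD against Water arrays the 138 became 63 with array medians centred, 352 after quantile normalization, 5178 with array weights, 8818 without the 10 arrays that stood apart, 221 with all 4 groups in one fit and 215 among the brighter probe sets. Leaving out single arrays gave 76 (without Water replicate 10) to 376 (without HD replicate 14). In HD-Recovery against HD arrays the 9 became 1 with array medians centred, 51 after quantile normalization, 12986 with array weights, 16922 without the arrays that stood apart, 45 with all 4 groups in one fit, 41 with replicate numbers over 10 as a term and 0 to 88 without single arrays. Array weights and leaving out the arrays that stood apart gave 527 and 3834 calls in HD-Recovery against Water-Recovery arrays and 9833 and 16591 for the difference of the HD effects, where the other settings gave 0. In Water-Recovery against Water arrays single arrays left out gave 0 to 1 and the other settings 0.

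The replicate numbers were not taken to pair the rats, since not every same-numbered pair had a correlation of deviations over 0.1. Pairs over 0.1 numbered 8 of 19 in HD and Water (median r 0.03), 8 of 18 in HD-Recovery and Water-Recovery (0.04), 6 of 18 in Water-Recovery and Water (−0.02) and 10 of 19 in HD-Recovery and HD (0.19). The highest r of a pair was 0.65, in HD and Water. This rule cannot show that arrays of the same number share nothing. With a replicate block 156 probe sets were called in HD against Water and 25 in HD-Recovery against HD arrays, and Ptgs2 in HD-Recovery against Water-Recovery was 0.0010 and Alox12 in Water-Recovery against Water 0.0028.

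Alox15b and Ptgds kept the sign of their log2 fold change in HD minus Water under all 9 settings (0.38 to 0.51 and −1.01 to −0.79) and without each single array (0.41 to 0.54 and −0.90 to −0.76). The sign turned for other differences that were small with all arrays. In HD-Recovery minus Water-Recovery, Ptgs2 was 0.0021 with array medians centred, and quantile normalization gave 0.0062 for Alox12, 0.00089 for Ptgs2 and −0.0064 for Ptgds, as well as 0.0016 for Ptges in HD-Recovery minus HD. With array weights, HD minus Water was −0.035 for Ptges and 0.0499 for Hpgds, HD-Recovery minus Water-Recovery −0.029 for Hpgds, and HD-Recovery minus HD −0.037 for Alox5, 0.0798 for Ptges and −0.034 for Hpgds. Without the arrays that stood apart, HD minus Water was −0.0626 for Ptges and 0.0621 for Hpgds, HD-Recovery minus Water-Recovery 0.031 for Alox15 and −0.044 for Hpgds, Water-Recovery minus Water −0.0058 for Ptgs1, and HD-Recovery minus HD −0.037 for Alox5, 0.10 for Ptges and −0.057 for Hpgds. Without single arrays, HD minus Water ran from −0.052 to 0.028 for Hpgds. HD-Recovery minus Water-Recovery ran from −0.032 to 0.0029 for Alox12, −0.015 to 0.012 for Ptgs2, −0.00040 to 0.15 for Ptgds and −0.0094 to 0.042 for Hpgds. Water-Recovery minus Water ran from −0.018 to 0.015 for Alox12 and −0.022 to 0.13 for Ptgds, and HD-Recovery minus HD from −0.0038 to 0.042 for Alox12 and −0.041 to 0.019 for Ptges. The filter on dim probe sets left Alox12, Alox5 and Hpgds with no value, and Ptgs1 with none in HD minus Water and HD-Recovery minus HD.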
